A study of Eublepharis macularius with 23 samples.

Results

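Hypome 1 and Hypome 3 are hypomelanistic morphs of the leopard gecko (*Eublepharis macularius*), known in captivity as Tremper Albino and Bell Albino. Heterozygous embryos of both morphs carry 1 recessive allele beside a wild-type one and develop normal pigment, so their skin describes the embryonic transcriptome shared by both breeding lines and the places where it differs. The 6 libraries of heterozygous dorsal skin were chosen by their labels out of 23 samples in the series, with 3 mh1/+ embryos of the Hypome 1 line and 3 mh3/+ embryos of the Hypome 3 line, all at embryonic day 40, when melanin has begun to form. The candidate mutations are a missense change in *TYR* for Hypome 1 and a premature stop in *OCA2* for Hypome 3. The Hypome 1 embryos came from a single pair of parents over several seasons. No source used here gives the sex of the embryos. Differences are written as Hypome 3 minus Hypome 1, so a positive log2 fold change means a higher level in Hypome 3.

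Reptile skin is coloured by several pigment cells of neural crest origin. Melanophores build melanin inside melanosomes, xanthophores hold pteridines and diet-derived carotenoids, and iridophores stack guanine crystals. They sit in a collagen-rich dermis below an epidermis of keratinocytes, which at this age is forming scales and its first cornified layers.

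The Hypome 1 libraries held 52017277, 36848360 and 34492904 counts and the Hypome 3 libraries 21208295, 18665698 and 16826633 counts on 22064 genes. The mates of a read pair were counted separately in the Hypome 1 table. Even numbers made up 58.1% to 59.6% of its counts of 10 to 2000, and 49.9% to 50% of those of the Hypome 3 table. RNA integrity was also lower and more variable in the Hypome 1 libraries. Breeding line, morph, RNA integrity and counting therefore change together between the groups and cannot be told apart. In bulk tissue, fewer cells of a type and less RNA per cell cannot be told apart either. *TYR*, the rate-limiting enzyme of melanin synthesis, was at 28.4, 23.9 and 42.3 CPM (TMM-normalized counts scaled to a common library size) in Hypome 1 and at 39.8, 35.5 and 48.4 CPM in Hypome 3. *OCA2*, a melanosomal chloride channel, was at 5.01, 1.62 and 6.80 CPM in Hypome 1 and at 5.77, 4.39 and 6.04 CPM in Hypome 3. Both pairs of groups overlapped, with adjusted p = 0.466 and 0.835 (edgeR quasi-likelihood test, Benjamini-Hochberg over all genes tested).

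The first question is how far embryonic skin of both lines shares 1 transcriptome. A count in every library was found for 16480 genes, and 13268 genes reached 1 TPM in all 6 libraries. TPM are counts corrected for gene length and scaled to a common total, without the TMM factors of the CPM. Ratios between the lines therefore differ between the 2 scales. Of the 100 genes with the highest mean TPM in each line, 91 were the same, which is 91.0% of each list. Across the 15906 genes tested, the line means correlated with a Pearson r of 0.974 on the log2 scale. This describes levels across genes, which are not independent replicates. Single libraries correlated at 0.932 to 0.964 between lines and at 0.947 to 0.976 within a line. The fitted change was under 1.5-fold for 13711 genes, 86.2% of those tested, and over 2-fold for 827.

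Mitochondrial messages and dermal collagen headed the shared profile. *COX1*, a mitochondrial subunit of cytochrome c oxidase, was at 18487, 20532 and 17059 TPM in Hypome 1 and at 29681, 29803 and 24470 TPM in Hypome 3. *COL1A1*, an alpha chain of type I collagen, was at 22933, 23741 and 26531 TPM in Hypome 1 and at 21361, 21498 and 23701 TPM in Hypome 3. The levels of *COX1* did not overlap between the lines and those of *COL1A1* did, and neither gene passed the test (adjusted p = 0.202 and 0.294). The 15 genes of highest mean TPM also included the matrix genes *COL1A2* and *SPARC*, the calcium-binding *S100A6*, the galectin *LGALS1*, a keratin annotated *KRT24-like*, a 28S ribosomal RNA gene and 7 further mitochondrial protein genes. None of the 15 was called different, and their log2 fold changes lay between -0.87 and 0.86. Genes annotated as ribosomal RNA took 4.88% to 12.7% of the Hypome 1 counts and 3.62% to 7.01% of the Hypome 3 counts.

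Marker genes matched the label of dorsal skin in both lines. *TP63*, the master regulator of basal keratinocytes, was at 131, 133 and 128 CPM in Hypome 1 and at 145, 130 and 154 CPM in Hypome 3. *COL17A1*, which anchors basal keratinocytes to the basement membrane, ranged from 704 to 911 CPM over the 6 libraries. *DSP*, the desmosomal plaque protein, ranged from 1471 to 2851 CPM. Both keratinocyte lists gave 0 called members, of 11 basal and 27 differentiating genes tested, and their medians were 0.02 and -0.04. With RNA integrity added to the fit as a covariate, these medians became 0.41 and 0.64. Over all genes tested the median was 0.005 without that covariate, and 0.151% were called. The 40 tested dermal matrix genes gave a median of 0.11 with 0 called, and the 43 tested genes of scale signalling a median of 0.06 with 0 called. Melanophore, Schwann cell, vessel, blood and muscle markers were present in every library as well.

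Of the 15906 genes tested, 24 were called at an adjusted p under 0.05, which is a background of 0.151%. In Hypome 3, 18 were higher (0.113%) and 6 lower (0.0377%). An unadjusted p under 0.05 was reached by 2355 genes, 14.8% of those tested, with 1049 higher (6.59%) and 1306 lower (8.21%). For all 24 called genes the 3 libraries of one line lay outside those of the other, where an exact permutation test of 3 against 3 gives its smallest possible p of 0.1. Such separation was found for 1629 genes higher (10.2%) and 1716 lower (10.8%) in Hypome 3. For 22 of the 24, the Hypome 3 libraries also lay outside all 9 Hypome 1 libraries, which hold 6 further wild-type and homozygous embryos, and this held for 9.93% of all genes tested. The exceptions were *APBB3* and *QTRT1*. DESeq2 called all 24 among 571 genes. Leaving out Hypome 3 replicate 1, 2 or 3 left 4, 4 and 5 calls. In each case 13 of the 24 then missed the minimum of 10 counts in 3 libraries, 7 were tested and lost their call, and 4 kept it. Of the 24, 14 were under 10 counts in every library of one line, 13 of them in Hypome 1, so they passed the minimum only through the line where they are high and had to differ. Their counts are a description and carry no p. The other 10 were counted in both lines, and with a minimum of 10 counts in all 6 libraries *BCO2*, *LOC129328676* and the tRNA gene *BW219_gt09* were called.

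Mitochondrial transfer RNA genes made up 14 of the 18 genes called higher in Hypome 3. These short genes lie between the protein genes of the mitochondrial genome, and the long mitochondrial transcripts are cut at them to release the messages. Of the 14, 12 had at most 3 counts in each heterozygous Hypome 1 library. They passed the minimum count only through Hypome 3, so their calls were fixed in advance. In the authors' assembly the 37 mitochondrial genes of the annotation form a block on scaffold 6, 22 of them for tRNAs of 63 to 77 bases. *BW219_gt21*, next to *CYTB*, had 2, 1 and 0 counts in Hypome 1 and 842, 539 and 670 counts in Hypome 3. *BW219_gt07* beside *ND2* had 0, 1 and 0 counts in Hypome 1 and 661, 547 and 594 in Hypome 3. Their normalized levels were at least 436-fold and at least 386-fold higher in Hypome 3, against a floor of 3 counts per library. *BW219_gt04*, next to *ND1*, had 0 counts in each Hypome 1 library and 429, 305 and 236 counts in Hypome 3, at least 203-fold higher.

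The pattern followed the spacing of the annotation. At most 3 counts in each heterozygous Hypome 1 library were found for 17 of the 22 tRNA genes, and their highest count in any of the 9 Hypome 1 libraries was 5. In Hypome 3 the same 17 genes held 3 to 842 counts per library. Each of the 17 had other mitochondrial genes within 9 bases on both sides or overlapped them. The 5 tRNA genes with more counts in Hypome 1 were those with at least 28 unannotated bases on one side. Of these, *BW219_gt09* had 275, 128 and 133 counts in Hypome 1 and 2497, 1866 and 2277 in Hypome 3, a log2 fold change of 4.66 ± 0.22 (SE, adjusted p = 0.000626). *BW219_gt22*, next to a gap of 2082 bases, had 1418, 500 and 441 counts in Hypome 1 and 463, 345 and 392 in Hypome 3 and was not called. All of the tRNA genes are shorter than the sequenced reads, and the tables were counted differently, so line and counting cannot be told apart for these genes.

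The mitochondrial protein genes moved little in comparison. None of the 13 was called, and their log2 fold changes ran from -0.37 to 0.86 with a median of 0.12. An unadjusted p under 0.05 was nevertheless reached by 7 of the 13, beside 14.8% of all genes tested. Of these 7, only *ND3*, at -0.37, was lower in Hypome 3. They took 4.46% to 4.68% of the Hypome 1 counts and 5.55% to 6.37% of the Hypome 3 counts. *ATP8*, a short subunit gene of ATP synthase that overlaps *ATP6*, had the highest of these values, with 321, 338 and 377 CPM in Hypome 1 and 693, 567 and 620 CPM in Hypome 3 (log2 fold change 0.86 ± 0.12, adjusted p = 0.0745).

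**Figure D1:**
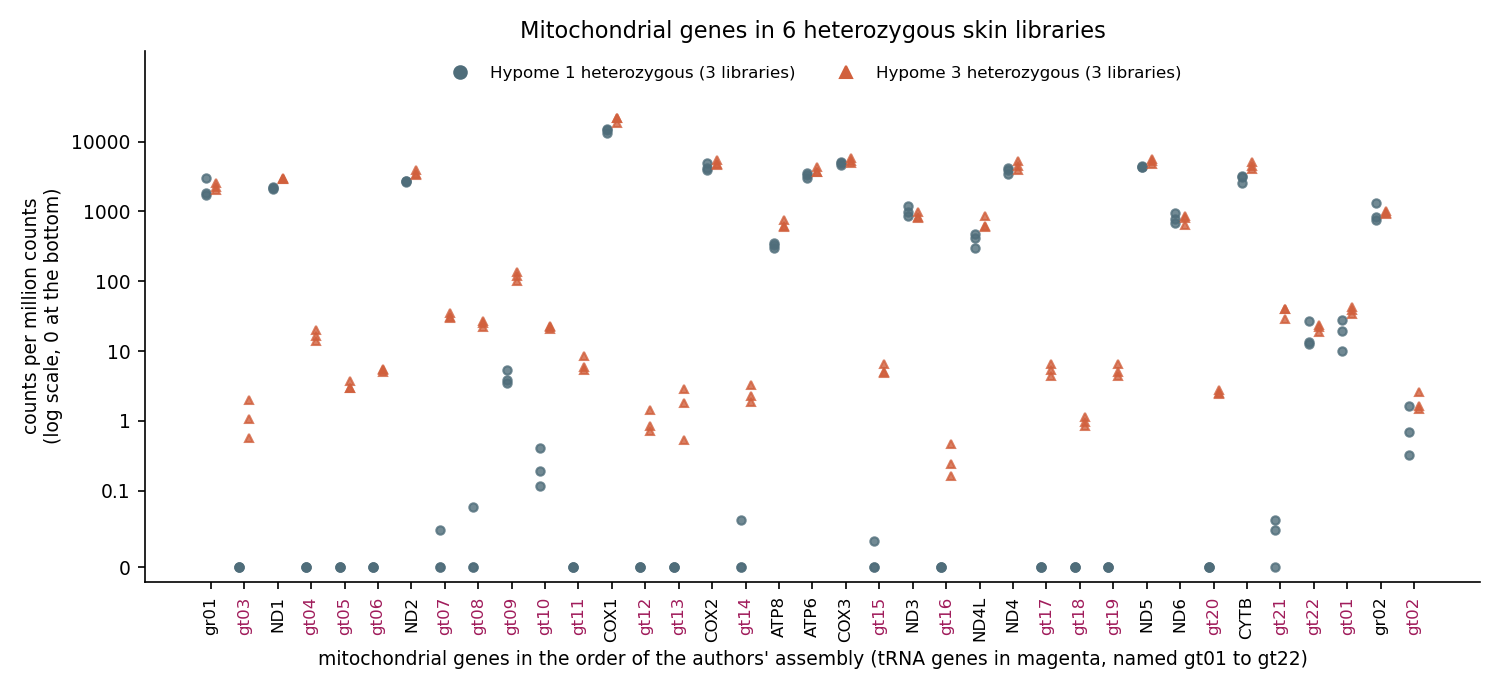
Unnormalized CPM of the 37 mitochondrial genes in the order of the assembly, on a log axis with 0 drawn at the bottom. Circles are the 3 Hypome 1 and triangles the 3 Hypome 3 heterozygous libraries. Protein and ribosomal RNA genes differ far less between the lines than most tRNA genes, of which 17 of the 22 are at or near 0 in Hypome 1.

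Outside the mitochondrial block, 10 genes were called, 4 higher and 6 lower in Hypome 3. *BCO2* changed most clearly. It encodes beta-carotene oxygenase 2, a mitochondrial enzyme that cleaves carotenoids, and in chicken its low expression in skin goes with yellow skin. It spans 4790638 to 4810052 on the minus strand of scaffold 14. *BCO2* was at 90.9, 71.4 and 106 CPM in Hypome 1 and at 5.25, 3.42 and 4.46 CPM in Hypome 3. The means were 89.4 ± 17.3 and 4.38 ± 0.918 CPM (SD, n = 3 each), a 20.4-fold lower level in Hypome 3 (log2 fold change -4.35 ± 0.22, adjusted p = 0.000671). On a scale normalized over 12 libraries, the 6 wild-type and homozygous Hypome 1 libraries were at 101 to 255 CPM. The Hypome 3 libraries were at 3.2 to 4.9 CPM on that scale. *BCO2* was called under the main and all 22 other settings tried, at log2 fold changes of -4.51 to -4.01.

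Genes around *BCO2* were examined, 10 on each side. Of these, 17 were tested, 9 of them with a higher and 8 with a lower estimate in Hypome 3. An unadjusted p under 0.05 was reached by 3, all lower, beside 14.8% of all genes tested. The nearest lower one is *LOC129342291*, annotated as like *PTS*, the synthase that forms the pteridine ring system of xanthophore pigment and of tetrahydrobiopterin. It was at 13.5, 11.4 and 25.6 CPM in Hypome 1 and at 4.08, 5.36 and 5.34 CPM in Hypome 3 (log2 fold change -1.77 ± 0.33, adjusted p = 0.15). A further *PTS-like* gene, *LOC129342328*, was at 83.9, 68.6 and 130 CPM in Hypome 1 and at 46.5, 36.0 and 56.0 CPM in Hypome 3 (log2 fold change -1.03 ± 0.26, adjusted p = 0.202). *SDHD*, a subunit of succinate dehydrogenase on the other side of *BCO2*, was at 66.8 to 76.3 CPM in Hypome 1 and at 46.8 to 55.9 CPM in Hypome 3 (adjusted p = 0.161). The groups of all 3 genes did not overlap, but none passed the threshold. *PIH1D2*, with an estimate of -0.48 ± 0.25, also had groups that did not overlap (adjusted p = 0.425). Such separation in either direction was found for 21.0% of all genes tested. *PTS* itself, which lies between its 2 related copies, had overlapping groups (log2 fold change -0.38 ± 0.26). Reads shared between these copies would make their counts uncertain. From *LOC129342314* outward on one side and *DLAT* on the other, 63.8 and 81.3 kb from *BCO2* between gene centres, the estimates lay between 0.04 and 1.46. The highest was that of *ANKK1*, at a mean of 0.408 CPM in Hypome 1 and 1.14 CPM in Hypome 3.

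**Figure D2:**
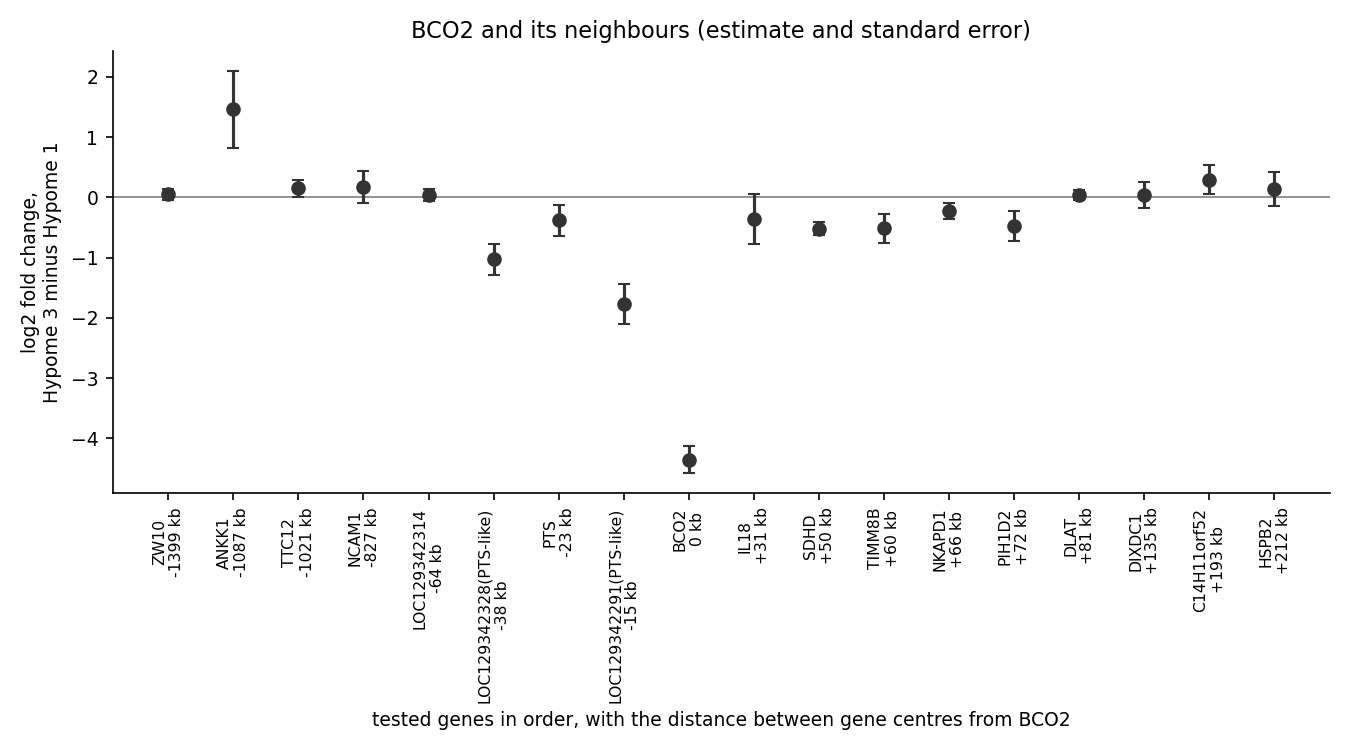
Log2 fold change with its standard error for *BCO2* and the 17 tested genes around it, in order along the scaffold. The lowest point is *BCO2* at -4.35, the nearby *PTS-like* genes are at -1.77 and -1.03, and the estimates return to about 0 at *LOC129342314* and *DLAT*.

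Other members of the carotenoid and pteridine list were not called. Of 16 members tested, *BCO2* alone was called, 6 had a positive and 10 a negative estimate, and the median was -0.08. *SCARB1*, the scavenger receptor that takes carotenoids into cells, had an estimate of 0.07 ± 0.38. *BCO1*, the related enzyme that makes retinal, stayed between 0.235 and 1.88 CPM. *SPR* and *QDPR*, which complete and recycle tetrahydrobiopterin, had estimates of 0.21 ± 0.10 and -0.22 ± 0.09.

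*LOC129328676* on scaffold 4, a protein-coding gene with no further name in the annotation, was at 15.4, 18 and 16.5 CPM in Hypome 1 and at 104, 102 and 80.9 CPM in Hypome 3. It rose 5.74-fold (log2 fold change 2.52 ± 0.13, adjusted p = 0.000671) and was called under all settings but the one with RNA integrity as a covariate. *LOC129327875*, also on scaffold 4, was at 1.44 to 2.12 CPM in Hypome 1 and 6.64 to 8.02 CPM in Hypome 3 (log2 fold change 1.97 ± 0.24, adjusted p = 0.0427). *LOC129340062*, like *SULT1D1*, a cytosolic sulfotransferase, was at 105 to 114 CPM in Hypome 1 and 189 to 194 CPM in Hypome 3 (log2 fold change 0.79 ± 0.09, adjusted p = 0.0369). *LOC129338628*, like *SLC12A3*, a sodium-chloride cotransporter, had 0 counts in the 3 Hypome 1 libraries and 93, 67 and 39 counts in Hypome 3, at least 41.1-fold higher.

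Among the genes that fell, *CDNF*, a neurotrophic factor of the endoplasmic reticulum, was at 7.42, 9.50 and 9.98 CPM in Hypome 1 and at 2.52, 2.35 and 2.99 CPM in Hypome 3 (log2 fold change -1.77 ± 0.21, adjusted p = 0.0427). *QTRT1*, the catalytic subunit that puts queuine into tRNAs, was at 65.3 to 70.8 CPM in Hypome 1 and 36.8 to 41.4 CPM in Hypome 3 (log2 fold change -0.78 ± 0.09, adjusted p = 0.0369). Its range in the other Hypome 1 libraries, 36.0 to 94.3 CPM, took in the Hypome 3 values. *APBB3*, an adaptor that binds the amyloid precursor protein, was at 33.0, 35.9 and 59.9 CPM in Hypome 1 and at 8.73, 8.84 and 7.98 CPM in Hypome 3 (adjusted p = 0.0263). It overlaps a *SLC35A4-like* gene on the opposite strand, whose estimate was 0.02 ± 0.17. The 2 genes share 14 bases. The other Hypome 1 libraries ran from 4.63 to 53.7 CPM for *APBB3* and took in the Hypome 3 values. The long noncoding RNA *LOC129338556* had 248, 119 and 189 counts in Hypome 1 and 0 in each Hypome 3 library, at least 30.9-fold lower. It was the single gene with at least 100 counts in every heterozygous Hypome 1 library and at most 3 in every Hypome 3 library.

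Haemoglobin genes also had lower estimates in Hypome 3. *LOC129325885*, like *HBB-2*, was called, at 1022, 858 and 751 CPM in Hypome 1 and 303, 336 and 384 CPM in Hypome 3 (log2 fold change -1.36 ± 0.16, adjusted p = 0.0369). A further *HBB-2-like* gene, *LOC129325884*, and the genes like *HBAD* and *HBA1*, *LOC129340103* and *LOC129340104*, had estimates of -1.18, -0.84 and -0.85 with no overlap between groups and adjusted p of 0.0672, 0.0859 and 0.0859. Globin copies share sequence, so reads could be split between them. *ALAS2*, which starts haem synthesis in red cells, was at 57.5 to 80.4 CPM in Hypome 1 and 31.9 to 41.4 CPM in Hypome 3 (adjusted p = 0.102), and it overlaps another gene. A list of erythroid genes, which does not hold the 4 globin genes above, had 15 members tested. Of these 0 were called, 14 had a negative estimate and the median was -0.27. The called globin spanned 456 to 2333 CPM in the other Hypome 1 libraries. The part of blood content in this result was not tested.

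Of these 10 genes, those counted in both lines differ in how firmly they were called. Besides *BCO2* and *LOC129328676*, *APBB3* was called in 13 of 22 settings, *LOC129327875* in 8 of 23, *CDNF* in 8 of 22, *SULT1D1-like* in 7 of 23, *HBB-2-like* in 7 of 22 and *QTRT1* in 6 of 23. *SLC12A3-like* and *LOC129338556* passed the minimum count only through the line where they are high, so their calls are no measure of firmness. When the mitochondrial genes were left out of the fit, an alternative chosen after seeing the data, only *BCO2* and *LOC129328676* passed the threshold, and the adjusted p of the other 8 rose above it. Just outside the threshold, 39 genes had an adjusted p from 0.05 to 0.1.

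**Figure D3:**
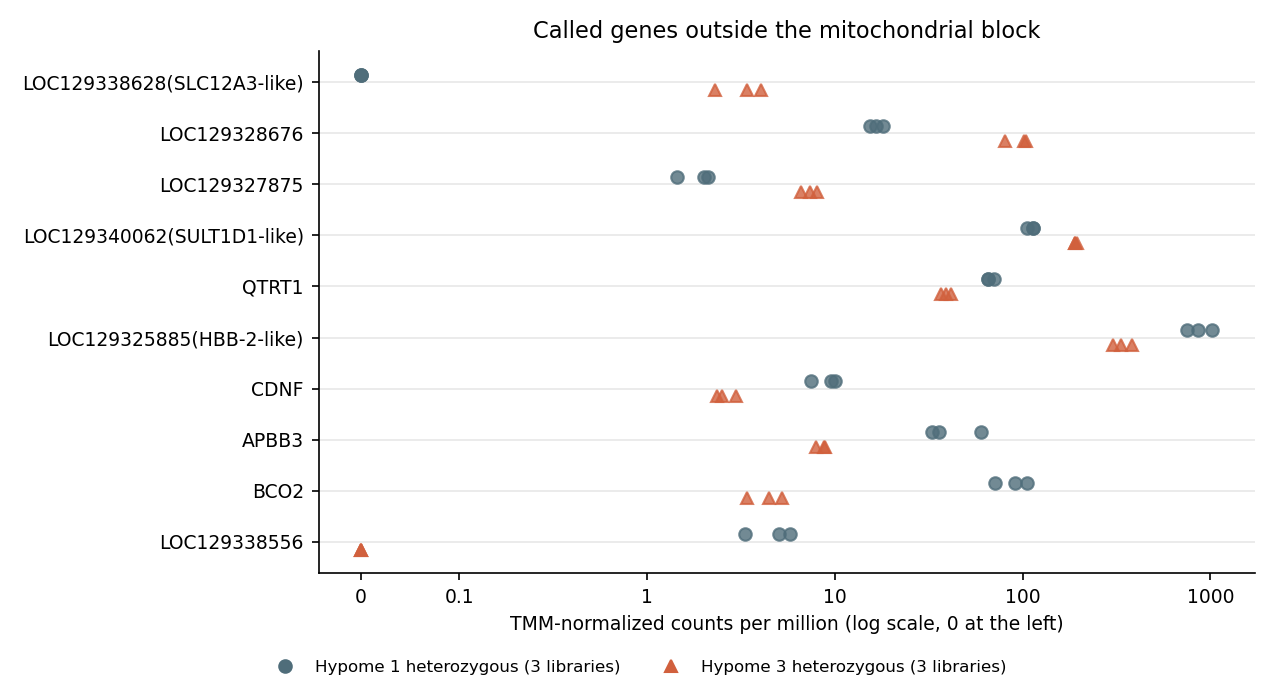
TMM-normalized CPM of the 10 called genes outside the mitochondrial block, on a log axis with 0 drawn at the left. Circles are the 3 Hypome 1 and triangles the 3 Hypome 3 heterozygous libraries. The groups of each gene are apart, by the widest margin among genes present in both lines for *BCO2*.

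No melanin gene was called, and the estimates lay on both sides of 0. Of the 40 melanosome and melanin genes tested, 0 were called, and the median log2 fold change was 0.08. An unadjusted p under 0.05 was reached by 6 with a higher and 6 with a lower level in Hypome 3, which is 30% of the list beside 14.8% of all genes tested. The groups did not overlap for 15, which is 37.5% beside 21.0%. *PMEL*, which forms the fibrils on which melanin is laid down, was the list's most abundant member. It was at 1036, 735 and 1307 CPM in Hypome 1 and at 936, 859 and 1019 CPM in Hypome 3, with overlapping groups. *DCT*, the tautomerase that follows tyrosinase, was at 99.4, 97.4 and 134 CPM in Hypome 1 and at 167, 145 and 186 CPM in Hypome 3 (log2 fold change 0.59 ± 0.16, adjusted p = 0.216). *SLC24A5*, a melanosomal cation exchanger, was at 25.6, 22.2 and 28.2 CPM and at 36.0, 34.6 and 34.4 CPM (0.47 ± 0.12, adjusted p = 0.2). In both genes the groups did not overlap. *SLC45A2*, a melanosomal transporter, and *TRPM1*, a melanocyte cation channel, had estimates of the other sign, at -0.33 ± 0.10 and -0.70 ± 0.24.

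The smallest p-values of the list belonged to *RAB38* and *BACE2*. *RAB38*, a small GTPase that carries *TYR* and its relatives to melanosomes, was at 12.7, 14.9 and 14.9 CPM in Hypome 1 and at 22.6, 25.3 and 26.4 CPM in Hypome 3 (log2 fold change 0.81 ± 0.13, adjusted p = 0.0973). It lies in the interval mapped for Hypome 1. *BACE2*, the protease that cleaves *PMEL*, was at 39.0 to 40.0 CPM in Hypome 1 and at 53.9 to 58.4 CPM in Hypome 3 (0.53 ± 0.08, adjusted p = 0.0973). The other Hypome 1 libraries ran up to 21.9 CPM for *RAB38* and 71.6 CPM for *BACE2* when normalized over 12 libraries. Some of them thus reached the Hypome 3 values. The Hypome 1 and Hypome 3 intervals on scaffold 3 hold 51 and 46 genes, of which 27 and 37 were tested and 0 were called, with medians of -0.02 and 0.03.

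Estimates for regulators of pigment cells were mostly positive, though none was called. *MITF*, the master regulator of melanocytes, was at 31.8 to 35.3 CPM in Hypome 1 and 33.6 to 35.4 CPM in Hypome 3, an estimate of 0.06 ± 0.09. *SOX10*, needed by all neural crest pigment cells, had an estimate of 0.18 ± 0.14 with overlapping groups. Of 31 regulators tested, 0 were called, 26 had a positive and 5 a negative estimate, and the median was 0.16. With RNA integrity as a covariate that median was 0.03. Over all genes tested, 8056 estimates were positive and 7850 negative. *PAX3*, a crest transcription factor, was at 2.57 to 4.95 CPM in Hypome 1 and 5.30 to 6.28 CPM in Hypome 3 (0.70 ± 0.29, adjusted p = 0.327). The 21 genes of purine synthesis, which supplies the guanine of iridophores, had a median of -0.11 with 0 called. *TBX2*, a T-box factor of the scale signalling list, was at 5.19, 9.61 and 6.92 CPM in Hypome 1 and at 19.8, 20.7 and 18.9 CPM in Hypome 3 (log2 fold change 1.45 ± 0.23, adjusted p = 0.0973).

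Ribosomal protein genes and nuclear genes of the respiratory chain had estimates of a single sign. All 78 ribosomal protein genes tested had a negative estimate, from -0.83 to -0.02, with a median of -0.46. The groups did not overlap for 67, all lower in Hypome 3, beside the background of 10.8%, and 0 were called. *RPS12*, a protein of the small subunit, was at 1401, 974 and 1140 CPM in Hypome 1 and at 731, 736 and 861 CPM in Hypome 3 (log2 fold change -0.59 ± 0.16, adjusted p = 0.205). *RPL18*, a protein of the large subunit, was at 1383 to 1699 CPM in Hypome 1 and 1155 to 1227 CPM in Hypome 3. Both overlap another gene in the annotation, whereas *RPS27*, which does not, had an estimate of -0.44 ± 0.15. The 64 nuclear genes of the respiratory chain likewise all had negative estimates, from -0.73 to -0.03, with a median of -0.43, no overlap for 21 and 0 called.

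The median log2 fold change also varied with gene length. Among the shortest genes, the 71 of up to 150 bases had a median of 0.53 and the 37 of 150 to 300 bases one of -0.12. Above that, the median log2 fold change went from -0.31 for exon lengths of 300 to 500 bases and -0.30 for 500 to 1000 bases to -0.14, -0.01, 0.10 and 0.14 for lengths up to 2000, 4000, 8000 and over 8000 bases. The ribosomal protein genes have a median exon length of 632 bases, against 2837 for all genes tested. Other genes of 453 to 1371 bases had a median of -0.23, and 21.7% of them were lower at an unadjusted p under 0.05 against 85.9% of the ribosomal protein genes. With the length trend removed from each library, an alternative chosen after seeing the data, the medians of the ribosomal and respiratory lists became -0.13 and -0.15. With RNA integrity as a covariate they became -0.02 and 0.04, and those of every length class from 300 bases up lay between -0.01 and 0.02, while the shortest classes stood at 0.83 and -0.61. Line and RNA integrity overlap in this design, so the shift could not be assigned to either.

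**Figure D4:**
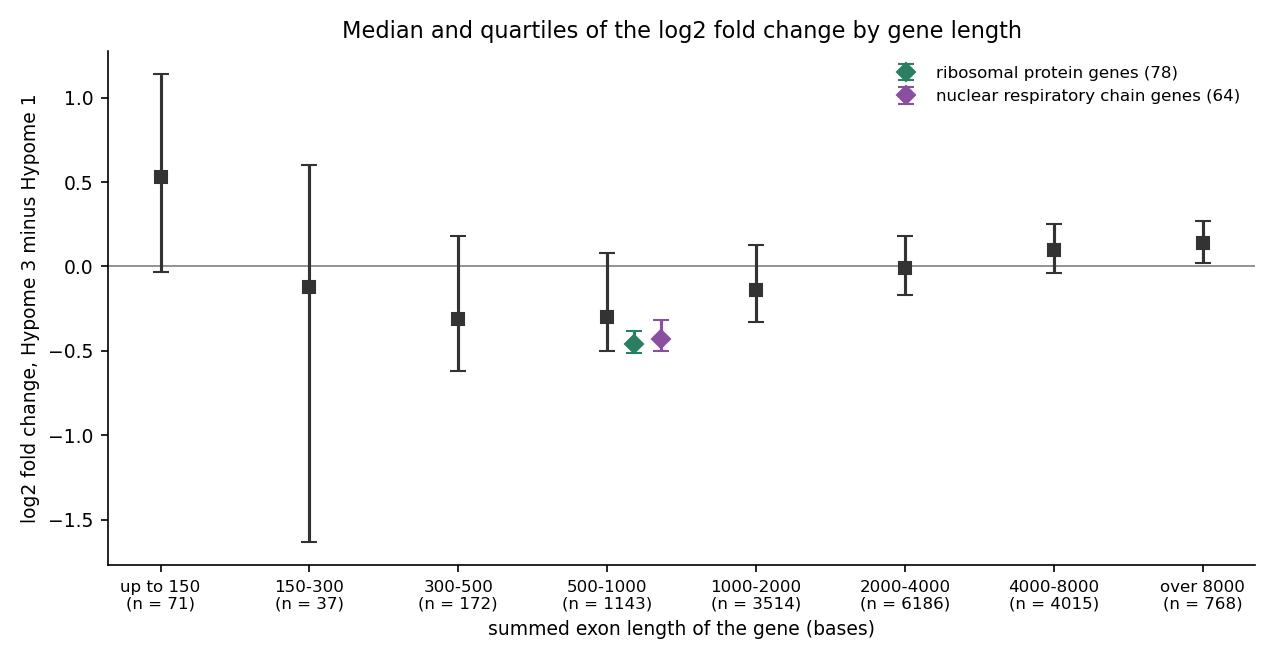
Median log2 fold change of genes in classes of exon length, with bars from the lower to the upper quartile. Squares are all genes tested and diamonds the 78 ribosomal protein genes at -0.46 and the 64 respiratory chain genes at -0.43. From 300 bases up the class medians rise from -0.31 to 0.14.

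Of the 23 lists, 7 had summed TPM that did not overlap between the lines. In these sums, which carry no TMM factor, basal keratinocyte, Schwann cell and nerve, endothelial and adipocyte markers were higher in Hypome 3. Those of pteridine and carotenoid, blood and ribosomal protein genes were lower. The pteridine and carotenoid list holds *BCO2*, at 69.3, 62.9 and 85.0 TPM in Hypome 1 and 5.08, 3.24 and 3.9 TPM in Hypome 3. The lower sum of that list therefore does not describe its other members. The scale matters for these sums, since the TMM-normalized fit gave the basal keratinocyte list a median of 0.02, with 6 positive and 5 negative estimates. The summed TPM of 27 endothelial genes was 299, 318 and 312 in Hypome 1 and 407, 393 and 396 in Hypome 3. That of the erythroid list, without the globin genes described above, was 400, 408 and 387 against 325, 362 and 339. The other Hypome 1 libraries spanned 206 to 349 for endothelium and 311 to 463 for blood, which takes in the Hypome 3 blood sums. Of the 27 endothelial genes 0 were called and the median was 0.21. *SOX18*, a factor of developing vessels, was at 11.3 to 23.6 CPM in Hypome 1 and 26.7 to 35.0 CPM in Hypome 3 (0.85 ± 0.26, adjusted p = 0.238). Adipocyte, Schwann cell and nerve, cartilage and bone, immune, cell cycle, immediate early, heat shock, glycolysis, Hox and matrix remodelling lists had 0 called members each, with medians of 0.62, 0.14, 0.08, -0.17, -0.07, 0.00, -0.15, -0.02, 0.07 and 0.19 in that order. Since 0.151% of all genes tested were called, 0 calls say little for any of the 23 lists. All 6 adipocyte genes tested had a positive estimate. An unadjusted p under 0.05 was reached by 3 of them, beside 6.59% of all genes tested that were higher at this level.

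Large differences among the 6 libraries also lay within the lines. The 4 genes annotated as *SHEMATRIN2-like* summed to 6797, 101 and 9382 TPM in Hypome 1 and to 319, 669 and 19019 TPM in Hypome 3. A keratin annotated *KRT19-like* went with them, at 941, 8.24 and 1103 CPM and at 70.8, 164 and 1641 CPM. *AMBN*, known in mammals as an enamel matrix protein, was at 194, 6.57 and 334 CPM and at 20.6, 50.1 and 294 CPM. *ELOVL4*, which makes the very long fatty acids of the skin barrier, was at 7.77, 0.671 and 16.8 CPM and at 0.304, 0.613 and 45.5 CPM. In all 4, Hypome 1 replicates 1 and 3 and Hypome 3 replicate 3 were high and the other 3 libraries low.

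Other genes had the opposite order. *COL2A1*, a fibrillar collagen best known from cartilage, was at 105, 397 and 138 CPM in Hypome 1 and at 229, 257 and 92.2 CPM in Hypome 3. *LEF1*, a transcription factor of Wnt signalling, was at 64.4, 137 and 58.6 CPM and at 126, 99.4 and 65.7 CPM. *DKK1* and *WIF1*, secreted Wnt inhibitors, and *COL28A1-like* were highest within their lines in Hypome 1 replicate 2 and Hypome 3 replicate 1, as was *LEF1*, whereas *COL2A1* was highest in replicate 2 of both lines. Principal components were taken of the 500 most variable genes after DESeq2's variance-stabilizing transformation. Leading genes of the first were *SHEMATRIN2-like* and *KRT19-like* genes at one end and *COL28A1-like* and *COL2A1* at the other. It took 63.3% of the variance and mixed the lines, with scores of -10.7, 18.1 and -18.1 in Hypome 1 and 18.6, 5.1 and -12.9 in Hypome 3. The lines did not overlap on the second component, with 18.3% of the variance. Its scores were -3.9, -8.2 and -7.7 in Hypome 1 and 7.7, -1.1 and 13.3 in Hypome 3. Its leading genes included *BCO2* and muscle genes at one end and mitochondrial tRNA genes at the other. Over all 15906 genes tested, the first component (40.8%) also mixed the lines and the second (25.9%) set them apart.

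Muscle genes also varied within both lines. The 46 of the list found in the table summed to 4764, 1093 and 8805 TPM and to 528, 5298 and 2479 TPM. *ACTA1*, skeletal muscle actin, was at 761, 112 and 1338 CPM and at 44.1, 584 and 395 CPM. Of 45 muscle genes tested 0 were called, although 41 had a negative estimate and the median was -0.97. With RNA integrity as a covariate the median turned to 1.21. Hypome 3 replicate 2 had much muscle RNA and little *SHEMATRIN2-like* RNA, so these groups of genes did not keep one order over the libraries. *BCO2* kept to the lines throughout, since every Hypome 1 value was over 10 times every Hypome 3 value.

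**Figure D5:**
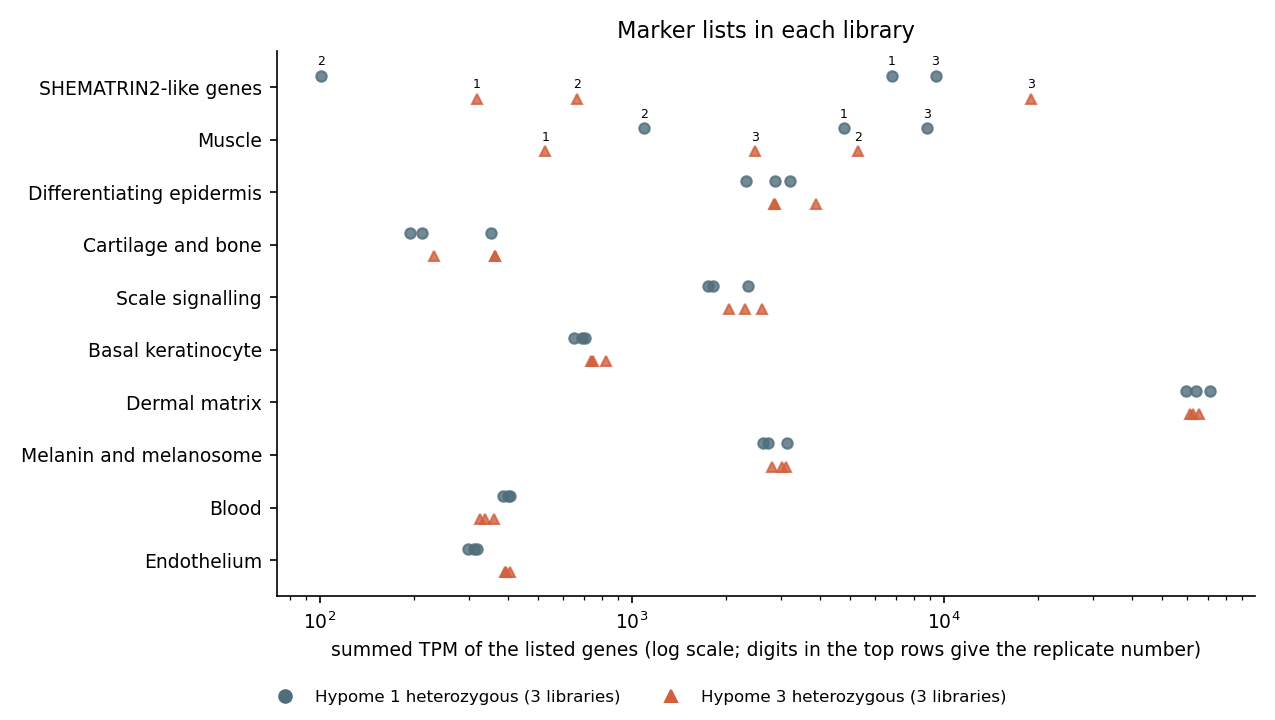
Summed TPM of 4 *SHEMATRIN2-like* genes and of 9 gene lists in each library, on a log axis. Circles are the 3 Hypome 1 and triangles the 3 Hypome 3 heterozygous libraries, and digits in the upper rows give the replicate number. The *SHEMATRIN2-like* and muscle genes range widely within both lines, and the other lists span a narrower range. On this scale, which carries no TMM factor, the lines do not overlap for basal keratinocyte, blood and endothelium.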

How the data were processed

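Bulk polyA RNA of dorsal skin was sequenced from 3 heterozygous Hypome 1 and 3 heterozygous Hypome 3 embryos. The authors deposited raw counts per gene, made with STAR 2.7.10b on their own assembly, an annotation lifted from RefSeq with LiftOn, and featureCounts (Subread 2.0.6) on uniquely mapped reads. The strand setting is not given in the sources used here. Both tables were joined by gene. *NEB* is broken over 5 lines and was left out. In the Hypome 3 table, 3 columns headed WT match no sample by name, since the labels give homozygous embryos there. They were not used, and what genotype they hold was not settled. The genotype of the Hypome 3 libraries used rests on their column names and sample labels.

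Genes with 10 or more counts in at least 3 of the 6 libraries were kept (15906, with 6158 left out) and fitted in R 4.3.3 with edgeR 4.0.16 (TMM, quasi-likelihood test, 2-sided, 4 residual and 3.14 prior degrees of freedom, common biological coefficient of variation 0.269). Each SE is the log2 fold change divided by the root of its F value. Adjusted p is Benjamini-Hochberg over all genes tested. TPM used the deposited gene lengths and no TMM factor. Single genes were also tested by exact permutation of log2 CPM with 0.1 added. Against groups of at most 3 counts per library, folds used a floor of 3 counts. Sequencing depth sets the precision of low counts, and floors cover counting error only.

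The edgeR and DESeq2 1.42.0 fits were also tested on simulated counts of 15668 genes. Of the genes changed by a log2 fold change of 1 or 2, edgeR recovered 27.6% and 78.1%, and DESeq2 49% and 86.5%. False calls numbered 7 with edgeR and 51 with DESeq2. The simulated counts used dispersions estimated by edgeR and no trend with gene length. They therefore do not show how strict either test is in the real data.

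The comparison and its 23 gene lists were chosen with earlier results of these data known. Named genes are the candidates and most abundant pigment genes, the 10 largest changes each way among called genes with non-overlapping groups and a mean of at least 1 CPM in the higher one, genes with at most 3 counts in one line and 100 or more in the other, the 15 of highest TPM, and up to 4 called members each way and the 3 most abundant of each list. Neighbours of *BCO2*, genes near the threshold, globins, genes leading the principal components and other list members were added after their values were seen. Alternatives were another test, normalization, filter, halved Hypome 1 counts, overlapping or short genes left out, a fold of 1.5, 12 libraries in 1 fit, replicate number, year or RNA integrity in the model, and each library left out. Mitochondrial names came from RefSeq by locus tag.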

Additional observations from a re-analysis of the deposited data

How the results depend on the processing

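The 24 calls came to 571 with DESeq2 (268 higher, 303 lower) and to 530 with DESeq2 on halved Hypome 1 counts, both including all 24. They fell to 13 with the year as a block, 12 without overlapping genes, 8 with the replicate number as a block, 5 with RNA integrity as a covariate, 3 with 10 counts in all 6 libraries, 2 without genes under 1000 bases and 2 without mitochondrial genes. The length filter and the one on mitochondrial genes remove the tRNA genes by construction. A minimum of 10 counts in all 6 libraries likewise removes the 14 called genes under 10 counts in every library of one line. Leaving out overlapping genes removes the 6 called genes that overlap another. For further losses and the other settings the cause was not tested. Halved counts alone gave 28 calls, no filter 29, DESeq2's size factors 24, upper quartile factors 24, a fold of 1.5 19, the length trend removed 20 and 12 libraries in 1 fit 32. Leaving out 1 library gave 4 to 32 calls. Replicate numbers do not pair embryos across lines: same-numbered libraries correlated at -0.167, 0.103 and 0.42 in their deviations from the line means, and not every library correlated best with its own number. Over 36 named genes, 559 alternative values kept their side of the threshold, 128 lost and 7 gained it, and 0 changed sign with a call. With CPM in place of TPM the correlation across genes was 0.98 and the lines shared 87 of their 100 highest genes. Halved counts with DESeq2, the fit without mitochondrial genes and the removed length trend were chosen after seeing the data. The depth of 16826633 to 21208295 counts in Hypome 3 limits what can be called among genes with few counts.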
